A study of Rattus norvegicus with 32 samples.

Results

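Livers from male rats of the inbred Lewis strain were compared after and before transplantation, in a study of grafts with macrosteatosis, in which large fat droplets fill hepatocytes. The comparison took the libraries whose column header could be tied to the pre-transplant or the post-transplant group, 22 of the 32 samples of the series, 11 in each group, over 11924 of 32883 Ensembl genes. Of the pre-transplant columns, 2 (replicates u1 and u2) share a header and were placed by inference, since either reading of that header is pre-transplant. The header of post-transplant replicate 1 stands over 2 columns, 1 of which may be a pre-transplant sample with no header of its own, and neither column was used. The labels give the tissue, strain, sex and group. They give no agent, allele, age, fat content, operation, donor or time after transplantation, and they do not say that libraries came from separate animals, so what the p-values weigh is sample-to-sample spread, part of which may be technical. Polyadenylated RNA was sequenced, and the deposited values are FPKM, fragments scaled to gene length and to a library size that was not the plain count of reads.

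As background, hepatocytes make most plasma proteins, process nutrients, bile acids and foreign compounds, and divide these tasks along the lobule between periportal and pericentral zones. Interleukin 6 and interleukin 1 act on hepatocytes through STAT3, NF-kappaB and C/EBP factors and switch them to acute phase proteins. Kupffer cells, stellate cells and sinusoidal endothelium surround the hepatocytes, and activin and its inhibitor follistatin act on the growth of the liver.

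A gene was called when limma gave an adjusted p of at most 0.05 over all genes tested. Changes are log2 differences on the log2(FPKM + 1) scale ± SE, post-transplant minus pre-transplant, and they understate the change of genes with low values. Where 3 levels are given for a gene, they are the lowest, the median and the highest FPKM of the 11 libraries of a group.

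Reads assigned to genes numbered 15372950 to 19311664 per library before and 15802817 to 18464388 after transplantation. The 13 matched hepatocyte markers took 11.1% to 16.4% of the summed FPKM before and 7.10% to 13.6% after transplantation. Of 15 listed markers of other organs 14 were matched and 3 were tested: Cela1, a pancreatic elastase gene, was called lower (12.65 to 53.3 FPKM before, 3.52 to 16.4 after), Cfd, a gene of fat, higher (3.25 to 18.9 before, 8.49 to 32.1 after, a call that ended without replicates u1 and u2), and Fabp2, of intestine, was not called (1.91 to 20.1 before, 0.318 to 7.73 after). Prss1, Ins1, Ins2, Lep and Umod were at 0 in all 22 libraries. Some libraries reached into the other group more often than others. Counting genes in which 1 library alone kept the groups from being apart, pre-transplant replicate u2, 1 of 2 columns that share a header, did so in 271 genes, and post-transplant replicate 9 in 223. Pre-transplant replicate 2 followed with 147 genes and post-transplant replicate 5 with 143. The groups did not overlap in 355 genes with higher levels (2.98% of genes tested) and in 115 with lower levels (0.964%), and in 605 and 427 genes without replicates 9 and u2.

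By limma, 5961 genes (50.0%) were called, 2787 higher (23.4%) and 3174 lower (26.6%). Counts of called members per gene list below are to be read against these shares. Called changes of at least 2-fold were fewer on the lower side, with 798 genes higher (6.69%) and 463 lower (3.88%), and the count higher was 1225 with a pseudocount of 0.1 and 1316 with voom on recovered reads. The sample titles number the samples so that pre-transplant and post-transplant labels alternate in blocks, and they were cut here, where the label turns back to pre-transplant, into 4 runs that each hold both groups. The labels do not say that these runs were handled apart. The group means differed in the same direction in all 4 runs for 2431 of the genes called higher (87.2%) and 2432 of those called lower (76.6%), against 5813 of all genes tested (48.8%). The last count takes both directions and includes the called genes. Calls and runs rest on the same libraries, so this agreement is no independent support for the calls.

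Most genes varied more among post-transplant libraries. The median SD of a gene over libraries was 0.299 after and 0.234 before transplantation on the log2(FPKM + 1) scale, and 8247 of 11924 genes (69.2%) had the larger SD after transplantation. No test of this difference is given.

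Genes were ranked by limma's moderated t, which weighs the size of a change against its error, and the 10 leading genes of each direction follow. Coordinates are those of the deposited table, and Rnor_6.0 is the rat build named in the submitters' processing notes. Csf2rb (ENSRNOG00000000187, chromosome 7, 119554354 to 119568776), the shared beta chain of the receptors for GM-CSF and interleukin 3, lay at 0.808, 1.31 and 3.97 FPKM before and at 6.23, 21.6 and 39.5 FPKM after transplantation (3.02 ± 0.22, adjusted p = 1.11e-10). Its lowest post-transplant value belonged to replicate 9 and was still above every pre-transplant library. Cd38 (ENSRNOG00000003069, chromosome 14, 71715269 to 71754672), an ectoenzyme that consumes NAD, rose from 3.93, 5.24 and 8.37 to 14.01, 20.9 and 37.9 FPKM (1.78 ± 0.14, adjusted p = 3.61e-10). Slc7a7 (ENSRNOG00000010296, chromosome 15, 33013504 to 33051129), the light chain of a carrier for cationic amino acids, rose from 2.24, 2.92 and 3.87 to 5.84, 10.7 and 12.8 FPKM (1.43 ± 0.11, adjusted p = 4.46e-10). Mcam (ENSRNOG00000007726, chromosome 8, 48472824 to 48481001), an adhesion molecule of endothelial and perivascular cells, rose from 1.33, 1.84 and 3.75 to 4.61, 7.93 and 14.01 FPKM (1.54 ± 0.13, adjusted p = 6.30e-10). In all 4 genes each post-transplant library lay above each pre-transplant one. The other leading genes on the higher side were Wfdc21, Spink1, Hmox1, Lgmn, C9 and Dcn, with adjusted p of at most 6.30e-10 and the same separation of the groups.

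The lower side held several enzymes. Fmo1 (ENSRNOG00000034191, chromosome 13, 80712882 to 80745347), a flavin monooxygenase of drug metabolism, fell from 31.4, 55.4 and 80.5 to 0.680, 7.10 and 23.5 FPKM (-3.09 ± 0.31, adjusted p = 1.25e-08). Acat1 (ENSRNOG00000007862, chromosome 8, 58166990 to 58195884), the mitochondrial acetoacetyl-CoA thiolase of ketone body and isoleucine metabolism, fell from 68.9, 103.9 and 131 to 16.96, 40.1 and 53.5 FPKM (-1.62 ± 0.17, adjusted p = 1.51e-08). As3mt (ENSRNOG00000020081, chromosome 1, 266482858 to 266514569), which methylates arsenic, fell from 93.7, 135 and 151 to 36.0, 56.7 and 87.1 FPKM (-1.18 ± 0.12, adjusted p = 1.58e-08). The groups did not overlap in any of these 3 genes. Fahd1, an oxaloacetate decarboxylase of mitochondria, fell from a median of 76.3 to 14.4 FPKM (adjusted p = 1.25e-08), and Ces2h, a carboxylesterase, from a median of 31.5 to 6.58 FPKM (-1.86 ± 0.19, adjusted p = 1.25e-08). In Fahd1 only replicate 9, at 54.4 FPKM, reached the pre-transplant range, and in Ces2h only replicate 5, at 18.01 FPKM. Anks4b fell by 1.08 ± 0.11, Mettl7b by 1.77 ± 0.17, Clca2 by 2.21 ± 0.21, and Olr59 and AABR07019442.2, an odorant receptor gene and a gene named only by its clone, by 2.89 ± 0.26 and 3.15 ± 0.27. Their groups did not overlap either, and adjusted p was at most 1.31e-08 in these 5.

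**Figure D1:**
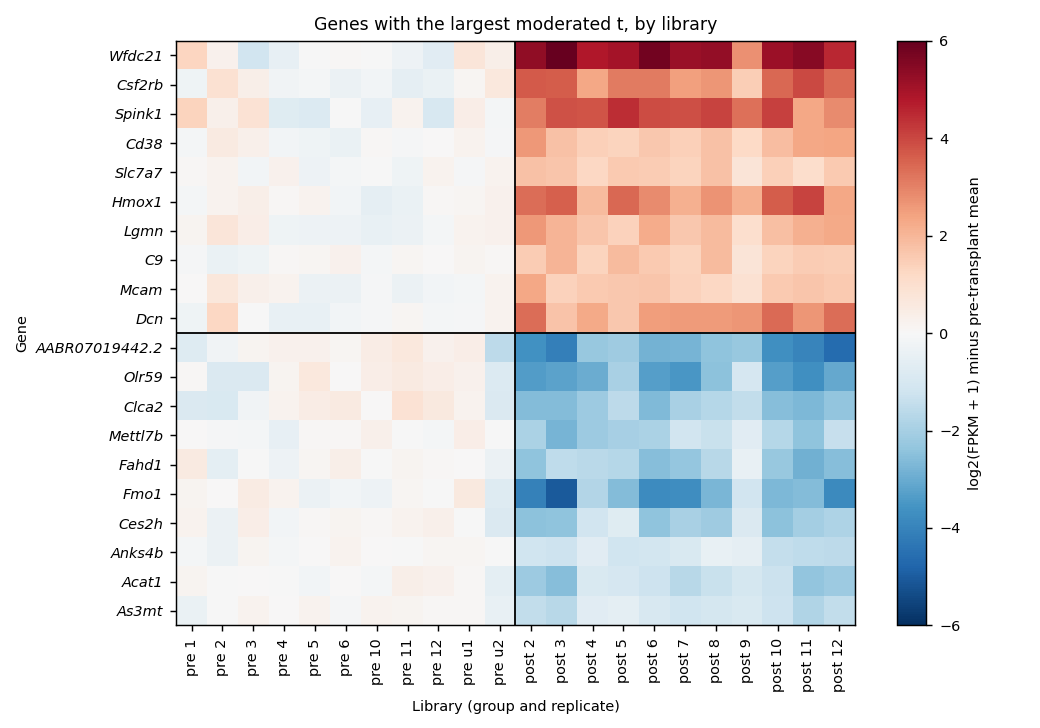
Difference of log2(FPKM + 1) from the pre-transplant mean in each of the 22 libraries (columns) for the 10 genes called higher and the 10 called lower with the largest moderated t (rows), with red for higher and blue for lower. The 11 post-transplant libraries keep 1 colour across each row, and replicate 9 is often the palest.

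The plasma proteins that hepatocytes secrete changed in both directions. In the list of protease inhibitors and plasma carriers, 26 of 31 listed genes were tested, 6 were called higher and 15 lower, and the median change was -0.84, against -0.03 over all genes tested. Together they took 14.4% to 20.2% of the summed FPKM before and 13.2% to 21.7% after transplantation, ranges that overlap. Hp, the hemoglobin binding protein haptoglobin, rose from 6502, 8341 and 10611 to 12459, 24797 and 34620.0 FPKM (1.35 ± 0.17, adjusted p = 4.03e-07), the largest rise of mean FPKM of any gene with its own symbol. All post-transplant libraries lay above all pre-transplant ones. Orm1, an acute phase glycoprotein that binds drugs, rose from 179.8, 449.6 and 1255 to 888, 7926 and 17621 FPKM (4.03 ± 0.41, adjusted p = 1.36e-08), and Hpx, the heme binding protein hemopexin, from 3869, 4927 and 7588 to 6684, 15877 and 19858 FPKM (1.30 ± 0.19, adjusted p = 2.52e-06). In each, 10 of 11 libraries after transplantation exceeded the pre-transplant maximum. A2m, a broad protease inhibitor that is an acute phase protein in rats, rose from a median of 0.831 to 30.5 FPKM (3.38 ± 0.45, adjusted p = 5.76e-07). On the lower side, Rbp4, the plasma carrier of retinol, fell from 2854, 4748 and 5216 to 866, 2062 and 2951 FPKM (-1.24 ± 0.16, adjusted p = 5.61e-07), with 10 of 11 libraries below the pre-transplant range. Beside these lists, 6 of 13 tested hepatocyte markers were called lower and 1, the fibrinogen chain Fgb, higher. The other 6 were not called, so the markers did not all move together. With quantile normalization 2 were called higher and 5 lower, with a median change of -0.06. In bulk RNA, fewer hepatocytes, less RNA per hepatocyte and lower levels of single genes cannot be told apart, and none of these was tested.

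Promoters of 5 members are shown, to place the letters that acute phase and hepatocyte factors bind beside members that rose and fell. They are the 3 members called higher that hold a STAT or C/EBP motif and the 2 members called lower with the largest fall that hold an HNF1 or HNF4 motif, of 18 tested members with a promoter sequence. The last gene shown depends on the HNF1 letters, which were shortened after a first search: with the longer letters it was Ambp. Each is the 250 bases before the RefSeq start of the gene in build GRCr8, 5′ to 3′ on the gene's strand, and capitals mark the motif. The motifs searched were TTGCNNAA for C/EBP, TTCNNNGAA for STAT, GTTAATNAT for HNF1 and CAAAGNCCA for HNF4, on both strands, and only the pair of the member's own direction is capitalized. Orm1 and Hpx hold a C/EBP motif, Itih4 a C/EBP and a STAT motif, Serpina4 an HNF1 motif and Alb another. The C/EBP letters also stood in 3 of the 10 members called lower that have a promoter sequence. Serpina4 and Alb are among them, with ttatgcaa and tttggcaa, matches on the other strand that were left in lower case. All 5 promoters shown thus hold the C/EBP letters.
Orm1, chr5:81788259-81788508, plus strand: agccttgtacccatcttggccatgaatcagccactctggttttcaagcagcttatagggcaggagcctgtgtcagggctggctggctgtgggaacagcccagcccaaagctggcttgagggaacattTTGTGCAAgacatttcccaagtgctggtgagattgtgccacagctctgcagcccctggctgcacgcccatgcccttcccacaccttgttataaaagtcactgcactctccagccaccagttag
Hpx, chr1:169352156-169352405, minus strand: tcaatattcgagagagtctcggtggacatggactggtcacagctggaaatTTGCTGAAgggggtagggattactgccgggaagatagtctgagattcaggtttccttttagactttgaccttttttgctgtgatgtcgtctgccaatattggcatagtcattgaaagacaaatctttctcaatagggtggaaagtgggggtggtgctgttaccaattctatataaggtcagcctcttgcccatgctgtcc
Itih4, chr16:6086735-6086984, plus strand: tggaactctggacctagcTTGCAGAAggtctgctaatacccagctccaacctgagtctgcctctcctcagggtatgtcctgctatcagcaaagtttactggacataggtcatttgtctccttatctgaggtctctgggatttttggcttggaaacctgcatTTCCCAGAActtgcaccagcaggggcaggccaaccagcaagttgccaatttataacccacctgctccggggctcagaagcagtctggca
Serpina4, chr6:128764532-128764781, plus strand: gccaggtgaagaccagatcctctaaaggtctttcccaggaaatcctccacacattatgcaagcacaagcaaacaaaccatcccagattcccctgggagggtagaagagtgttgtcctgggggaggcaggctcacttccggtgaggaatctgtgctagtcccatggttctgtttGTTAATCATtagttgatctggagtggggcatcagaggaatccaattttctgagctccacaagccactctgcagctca
Alb, chr14:17906980-17907229, minus strand: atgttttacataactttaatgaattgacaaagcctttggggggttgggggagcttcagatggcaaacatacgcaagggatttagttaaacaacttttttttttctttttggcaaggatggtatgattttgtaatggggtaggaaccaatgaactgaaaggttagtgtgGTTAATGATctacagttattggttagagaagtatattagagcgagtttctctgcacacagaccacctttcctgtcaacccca
Itih4, an inter-alpha-trypsin inhibitor heavy chain of the acute phase, rose from a median of 1015 to 1943 FPKM (0.79 ± 0.24, adjusted p = 0.00656). Serpina4, the kallikrein inhibitor kallistatin, fell from a median of 922 to 180.0 FPKM (-1.91 ± 0.30, adjusted p = 6.07e-06), and Alb, albumin, the main plasma protein, from 51320.0 to 20743 FPKM (-1.23 ± 0.23, adjusted p = 4.87e-05).

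Over all genes, 8063 of the 11789 tested genes with a symbol of their own matched a promoter, 543 of them called and at least 2-fold higher and 274 called and at least 2-fold lower. The HNF4 letters stood in 4.75% of the promoters of genes lower, in 0.737% of those higher and in 1.44% of all, and the HNF1 letters in 2.55%, 0.184% and 0.471%. The C/EBP letters stood in 13.5% of promoters of genes lower, 10.3% of those higher and 7.84% of all, and the STAT letters in 8.03%, 5.89% and 5.78%. The letters GGNNTTTCC, an NF-kappaB motif, stood in 5.47%, 8.29% and 5.64%. Base composition differed as well: the median GC content was 55.6%, 57.6% and 60.0%, and TATAAA stood in 13.9%, 12.3% and 6.45%. These are matches of letters, given with no test.

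Complement genes rose more often than not. Of 37 listed genes 34 were tested, 21 called higher and 7 lower, with a median change of 0.51, and their share of the summed FPKM was 1.61% to 2.01% before and 2.30% to 3.25% after transplantation, without overlap. C9, a pore-forming component made in the liver, lay at 462, 644 and 727 FPKM before and 1053, 1765 and 2573 FPKM after (1.52 ± 0.13, adjusted p = 6.30e-10). C4b, which joins the classical and lectin pathways, rose from 1.40, 2.20 and 8.18 to 10.3, 15.7 and 98.7 FPKM (2.66 ± 0.31, adjusted p = 8.43e-08). The groups of both genes were apart. Among receptors, C5ar1 for the fragment C5a rose from a median of 1.35 to 8.51 FPKM (1.95 ± 0.23, adjusted p = 8.43e-08) and C3ar1 for C3a from 0.819 to 6.12 FPKM (1.82 ± 0.20, adjusted p = 3.20e-08). C8g, a chain of the pore complex, fell from a median of 390.1 to 110.3 FPKM (-1.46 ± 0.25, adjusted p = 1.59e-05), and Mbl2, a mannose binding lectin, from 1.97 to 0.610 FPKM (-0.76 ± 0.14, adjusted p = 5.53e-05).

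Coagulation and fibrinolysis genes moved in both directions. Of 31 listed genes 29 were tested, 13 called higher and 8 lower with a median change of -0.01. Over all genes tested 23.4% were called higher and 26.6% lower, so the count lower was near that share. The part of the summed FPKM taken by the list went from a median of 1.94% to 3.999%, with 10 of 11 libraries past the pre-transplant range. With quantile normalization 13 were called higher and 5 lower with a median of 0.14, so no direction is given for the list. Plau, the urokinase plasminogen activator, rose from 2.14, 2.83 and 6.62 to 8.14, 12.3 and 22.7 FPKM (1.78 ± 0.16, adjusted p = 2.26e-09), with the groups apart. Plaur, the urokinase receptor, rose from 0.715 to 4.33 FPKM at the median (1.76 ± 0.24, adjusted p = 8.61e-07). The fibrinogen chains Fgg and Fga rose by 1.17 ± 0.20 and 1.25 ± 0.21 on the log2 scale (adjusted p = 2.56e-05 and 1.35e-05). F12, the contact factor that starts the intrinsic pathway, fell from a median of 354 to 128 FPKM (-1.09 ± 0.19, adjusted p = 1.94e-05), and Proc, the anticoagulant protein C, from 342 to 124 FPKM (-0.97 ± 0.17, adjusted p = 2.31e-05). Procr, the endothelial receptor of protein C, rose from 0.987 to 3.92 FPKM (1.17 ± 0.14, adjusted p = 2.02e-07).

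**Figure D2:**
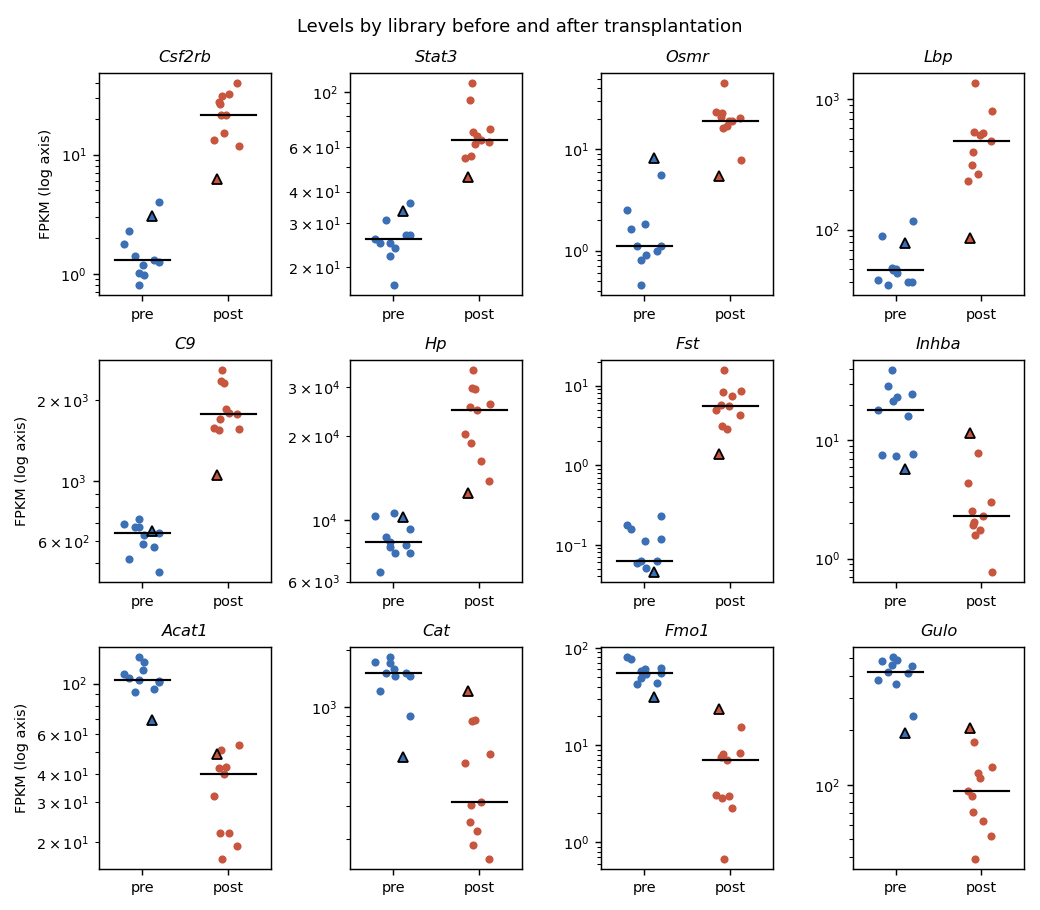
FPKM of 12 genes in each library on log axes, pre-transplant in blue and post-transplant in red, with a line at the group median and triangles for replicates u2 (before) and 9 (after). The groups are apart in Csf2rb, Stat3, C9, Hp, Fst, Acat1 and Fmo1 and touch or cross in Osmr, Lbp, Inhba, Cat and Gulo, and 1 pre-transplant library with Fst at 0 cannot be drawn on a log axis. Fst was under 1 FPKM in every pre-transplant library and passed the filter through libraries of the other groups.

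Genes of the pathway that instructs acute phase synthesis rose. For interleukin 6 and interleukin 1 signalling, 20 of 24 listed genes were tested, 12 called higher and 0 lower, with a median change of 1.01. Stat3, the factor that interleukin 6 receptors activate, lay at 16.99, 25.8 and 36.0 FPKM before and 45.7, 64.2 and 108.1 FPKM after (1.32 ± 0.14, adjusted p = 1.53e-08). Il1b, the cytokine interleukin 1 beta, rose from 1.98, 3.97 and 6.11 to 7.13, 43.8 and 95.9 FPKM (2.70 ± 0.31, adjusted p = 9.15e-08). Neither gene overlapped between groups. Osmr, the receptor chain for oncostatin M, rose from 0.458, 1.11 and 8.21 to 5.48, 19.1 and 45.0 FPKM (2.75 ± 0.32, adjusted p = 9.15e-08), and Cebpd, a C/EBP factor of the acute phase, from 2.52, 4.61 and 8.71 to 6.67, 25.5 and 70.1 FPKM (2.29 ± 0.27, adjusted p = 1.07e-07). Osmr separated in 9 of 11 libraries and Cebpd in 10. Jak2, a kinase of this pathway and of growth hormone signalling, rose from a median of 3.76 to 7.69 FPKM with the groups apart (1.09 ± 0.13, adjusted p = 1.44e-07). The interleukin 6 receptor itself did not pass the test. The medians of Il6r went from 19.3 to 16.2 FPKM (0.01 ± 0.27, adjusted p = 0.982) and those of its partner Il6st from 45.9 to 52.1 FPKM (0.20 ± 0.18, adjusted p = 0.359), both named after their values were seen, and Il6 was too low to be tested.

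Sensors of bacterial products rose as well. Of 42 listed genes of Toll-like receptors and NF-kappaB, 33 were tested, 27 called higher and 0 lower, with a median change of 0.71. Lbp, the plasma protein that hands lipopolysaccharide to its receptor, rose from 37.7, 49.2 and 117 to 86.5, 475 and 1325 FPKM (2.90 ± 0.32, adjusted p = 3.81e-08). Tlr2, a receptor for bacterial lipoproteins, rose from 0.730, 0.966 and 2.01 to 2.93, 11.7 and 31.0 FPKM (2.40 ± 0.25, adjusted p = 1.53e-08). Irak4, the kinase that starts signalling below these receptors, rose from 1.56, 2.10 and 2.80 to 3.48, 4.21 and 5.57 FPKM (0.74 ± 0.07, adjusted p = 9.51e-09), and Irak3, an inhibitor of that step, from 3.34 to 16.3 FPKM at the median (1.75 ± 0.20, adjusted p = 6.70e-08). Tlr2 and Irak4 did not overlap between groups, and replicate 9 was the lowest post-transplant library for Lbp.

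Among chemokines and their receptors, 33 of 55 listed genes were tested, 22 called higher and 4 lower, with a median change of 1.12. Ccl6, a chemokine of rodents for myeloid cells, rose from 54.7, 68.1 and 108.2 to 127, 178 and 369 FPKM (1.41 ± 0.13, adjusted p = 3.85e-09). Ccl19, a ligand of the lymph node homing receptor CCR7, rose from 0.634 to 4.74 FPKM at the median (1.88 ± 0.25, adjusted p = 5.46e-07), and Cxcr4, the receptor of CXCL12, from 1.202 to 5.10 FPKM (1.55 ± 0.21, adjusted p = 7.19e-07). The groups were apart in all 3. Cxcl12, the ligand of that receptor, moved the other way, from 23.5, 85.2 and 108.2 to 11.8, 21.2 and 84.9 FPKM (-1.54 ± 0.30, adjusted p = 9.16e-05), with 7 of 11 libraries below the pre-transplant range. For eicosanoids, 19 of 34 listed genes were tested, 9 called higher and 4 lower, with a median change of 0.47. Tbxas1, thromboxane synthase, rose from a median of 1.03 to 5.04 FPKM (1.64 ± 0.19, adjusted p = 9.15e-08), Ptgs1, cyclooxygenase 1, from 6.43 to 15.3 FPKM (1.18 ± 0.16, adjusted p = 7.46e-07), and Pla2g4a, which frees arachidonic acid, from 1.27 to 3.39 FPKM (0.91 ± 0.13, adjusted p = 1.30e-06). Ptgr1, which inactivates leukotriene B4 and prostaglandins, fell from 49.4 to 17.04 FPKM (-1.60 ± 0.23, adjusted p = 1.45e-06), and Ptger3, a prostaglandin E2 receptor, from 26.4 to 8.68 FPKM (-1.21 ± 0.25, adjusted p = 0.000171).

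Markers of immune cells moved with these lists. Kupffer cell markers were called higher in 11 of 12 tested members, where 23.4% of all genes tested were called higher. They took 0.0478% to 0.138% of the summed FPKM before and 0.173% to 0.521% after transplantation. The groups were apart in 4 of the 12, against 2.98% of all genes. They overlapped in all other members, among them Clec4f, at 24.2, 77.0 and 111.9 FPKM before and 10.1, 103.1 and 173.6 FPKM after. The smallest change of a member was 0.110, in the one not called. Monocyte markers were called higher in 8 of 8 and took 0.0112% to 0.0405% before and 0.0312% to 0.607% after. Neutrophil markers, of which 13 of 14 were matched, took 0.000385% to 0.00206% before and 0.00506% to 0.135% after. Their 7 tested members, all called higher, include Cxcr2, Csf3r and Mmp8, which were under 1 FPKM in every pre-transplant library and passed the filter through libraries of the other groups, so the count of calls says little. The 6 untested ones were Fpr1, Camp, Ltf, Mpo, Elane and Cxcr1, with Ltf and Cxcr1 at 0 in 21 of 22 libraries. T and NK cell markers were called higher in 4 of 7 tested, B and plasma cell markers in 2 of 3 and platelet markers in 2 of 3, and none of these lists had a member called lower. The summed levels of Kupffer cell and neutrophil markers did not overlap between groups. No Kupffer cell, monocyte or neutrophil marker found in the table was at 0 in all libraries, and the part of these cells in the changes above was not tested.

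Enzymes of lysosomes rose in part. Of 54 listed genes 49 were tested, 21 called higher and 9 lower, with a median change of 0.14. Lgmn, the asparaginyl endopeptidase legumain, rose from 21.5, 26.9 and 49.5 to 59.2, 111 and 181 FPKM (1.87 ± 0.15, adjusted p = 6.30e-10), Ctsz, a carboxypeptidase of lysosomes, from 24.4 to 91.9 FPKM at the median (1.75 ± 0.20, adjusted p = 8.33e-08), Ctss, a protease of antigen presenting cells, from 27.3 to 88.9 FPKM (1.53 ± 0.19, adjusted p = 1.74e-07), and Grn, the progranulin precursor, from 36.5 to 103.02 FPKM (1.34 ± 0.15, adjusted p = 3.81e-08). Npc1, which exports cholesterol from lysosomes, fell from 19.6 to 11.2 FPKM (-0.81 ± 0.15, adjusted p = 5.56e-05). With quantile normalization 27 members were called higher and 4 lower, and Lamp2, a membrane protein of lysosomes that fell by 0.51 ± 0.09 (adjusted p = 3.30e-05), lost its call (adjusted p = 0.575).

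Most cytoskeleton genes tested rose. Of 64 listed genes of actin and tubulin, 58 were tested, 45 called higher and 2 lower, with a median change of 0.86. Arpc1b, a subunit of the complex that branches actin filaments, rose from 27.9, 32.2 and 42.6 to 58.7, 92.0 and 207 FPKM (1.59 ± 0.16, adjusted p = 1.53e-08). Actn1, an actin crosslinker, rose from 6.10, 6.48 and 11.8 to 11.3, 15.2 and 23.1 FPKM (1.00 ± 0.10, adjusted p = 5.49e-09), and Fscn1, which bundles actin in protrusions, from 0.628, 1.02 and 1.60 to 2.96, 5.45 and 13.5 FPKM (1.77 ± 0.18, adjusted p = 9.69e-09). Arpc1b and Fscn1 did not overlap between groups. Capg, which caps actin filaments, rose by 2.41 ± 0.25 (adjusted p = 1.32e-08). For annexins, galectins and S100 proteins, 26 of 35 listed genes were tested, 18 called higher and 2 lower, with a median change of 1.21. Anxa3, an annexin that binds membranes with calcium, rose from 6.02, 8.40 and 13.6 to 19.5, 25.2 and 47.5 FPKM (1.55 ± 0.15, adjusted p = 4.15e-09), and S100a11 from a median of 8.80 to 69.1 FPKM (2.87 ± 0.35, adjusted p = 1.94e-07). Lgals8, a galectin, and Anxa8 fell, by 0.59 ± 0.12 and 0.70 ± 0.18 (adjusted p = 0.000189 and 0.00170).

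Enzymes that build matrix, and the TGF-beta pathway, rose in 28 of 44 tested members out of 53 listed, with 4 called lower and a median change of 0.65. Serpinh1, the collagen chaperone HSP47, rose from 8.12, 12.4 and 17.9 to 17.8, 51.9 and 72.9 FPKM (1.74 ± 0.19, adjusted p = 3.98e-08). Plod2, which hydroxylates lysines of collagen, rose from 0.226, 0.464 and 0.751 to 0.938, 4.92 and 9.75 FPKM (1.94 ± 0.23, adjusted p = 1.19e-07). Pcolce, an enhancer of procollagen cleavage, rose from 1.43, 2.79 and 9.54 to 13.8, 50.9 and 126 FPKM (3.31 ± 0.36, adjusted p = 3.61e-08). The groups were apart in Plod2 and Pcolce, and 10 of 11 libraries were past the range in Serpinh1. Adamts4, a protease of proteoglycans, was under 1 FPKM in every pre-transplant library (0.0793, 0.258 and 0.551) and over it in every post-transplant one (1.01, 2.75 and 4.66, 1.48 ± 0.13, adjusted p = 1.30e-09). Plod2 was under 1 FPKM in every pre-transplant library too. Both genes are among the 28 and passed the filter through libraries of the other groups. The calls of Adamts4 and Plod2 and the separation of their groups therefore say little. Bmp1, the protease that cleaves procollagen ends, fell by 0.35 ± 0.10 (adjusted p = 0.00368). Markers of stellate cells and fibroblasts were called higher in 10 of 13 tested members and lower in 1, Pdgfc, whose call ended with any of 6 libraries left out singly. In 2 members there was no call. Groups overlapped in Lrat and Reln, with medians of 5.31 and 3.40 FPKM before and 4.47 and 3.63 FPKM after. Over all genes tested, 23.4% were called higher and 26.6% lower. Lum and Thy1 were under 1 FPKM in every pre-transplant library (at most 0.313 and 0.289). They passed the filter through libraries of the other groups, so a call of either says little. The markers took 0.00693% to 0.0176% of the summed FPKM before and 0.0217% to 0.142% after, without overlap. Endothelial markers were called higher in 6 of 13 and lower in 1, Kdr, the main VEGF receptor, which fell from a median of 15.1 to 7.61 FPKM (-0.70 ± 0.17, adjusted p = 0.00104). No stellate cell or endothelial marker found in the table was at 0 in all libraries, and the part of these cells was not tested.

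Follistatin rose, and the activin subunits moved in both directions. Fst (ENSRNOG00000011631, chromosome 2, 46538700 to 46544457), which encodes the activin inhibitor follistatin, lay at 0, 0.0633 and 0.233 FPKM before and 1.40, 5.54 and 15.7 FPKM after transplantation (2.53 ± 0.21, adjusted p = 6.30e-10). That is 0 to 4 reads per library before and 28 to 271 after, so that the groups were apart and the pre-transplant level rests on few reads. Fst passed the filter through libraries of the other groups, so its call and the separation of its groups say little. Inhba (ENSRNOG00000014320, chromosome 17, 51898217 to 51912496), the activin A subunit, fell from 5.71, 18.005 and 39.2 to 0.772, 2.28 and 11.5 FPKM (-2.07 ± 0.31, adjusted p = 3.88e-06), with 9 of 11 libraries below the pre-transplant range. Inhbb, the activin B subunit, rose from 0, 0.111 and 1.497 to 0.368, 3.69 and 10.54 FPKM (1.67 ± 0.24, adjusted p = 1.43e-06). Inhbe and Inhbc, subunits made in liver and named after their values were seen, fell from medians of 79.4 to 30.0 FPKM (-1.25 ± 0.29, adjusted p = 0.000730) and 42.5 to 22.8 FPKM (-0.90 ± 0.27, adjusted p = 0.00588). In the whole list of growth factors of regeneration and their receptors, 36 of 48 listed genes were tested, 9 called higher and 8 lower, with a median change of -0.13, shares near those of all genes. Fgfr1, a fibroblast growth factor receptor, rose from 2.08 to 4.18 FPKM at the median with the groups apart (0.87 ± 0.13, adjusted p = 2.42e-06), and Rspo3, which strengthens Wnt signals in the pericentral zone, fell from 2.08 to 1.26 FPKM (-0.39 ± 0.08, adjusted p = 0.000313).

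Some transcription factors that define hepatocytes fell. Of 22 listed and tested factors 0 were called higher and 9 lower, with a median change of -0.30. Cebpa, a factor of hepatocyte metabolism, fell from 104.5, 159.7 and 245 to 43.9, 64.5 and 157 FPKM (-0.97 ± 0.21, adjusted p = 0.000392), with 7 of 11 libraries below the pre-transplant range. Nr1i3, the xenobiotic receptor CAR, fell from 6.72, 24.1 and 42.2 to 4.97, 10.7 and 21.1 FPKM (-1.14 ± 0.25, adjusted p = 0.000322), with 3 libraries below it. Onecut2 fell by 0.62 ± 0.14 (adjusted p = 0.000423) and Hlf by 1.04 ± 0.26 (adjusted p = 0.00133). Hnf4a, named after its value was seen, had medians of 113 to 98.5 FPKM and did not pass the test (-0.38 ± 0.18, adjusted p = 0.0739). Groups overlapped in all 22 factors, as they did in most genes tested (2.98% apart and higher, 0.964% apart and lower).

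Genes of both zones of the lobule fell in part. Of 21 listed pericentral genes 19 were tested, 1 called higher and 9 lower with a median change of -0.45, and of 22 periportal genes 1 was called higher and 14 lower with a median of -0.65. Gulo, the last enzyme of vitamin C synthesis in rats, fell from 194, 422 and 508 to 39.1, 92.7 and 205 FPKM (-2.05 ± 0.21, adjusted p = 1.84e-08), and Cyp2e1, which oxidizes ethanol, from 727, 1349 and 3302 to 155, 213 and 797 FPKM (-2.21 ± 0.30, adjusted p = 1.04e-06). Replicate 9 was the only library in which Gulo reached the pre-transplant range. On the periportal side, Hsd17b13, a lipid droplet enzyme, fell from 237, 362 and 488 to 26.6, 78.3 and 165 FPKM (-2.20 ± 0.27, adjusted p = 1.71e-07) and Cyp2f4 from 20.48, 29.1 and 39.1 to 3.76, 7.57 and 20.2 FPKM (-1.73 ± 0.19, adjusted p = 3.53e-08). Neither overlapped between groups. Glul, glutamine synthetase of the innermost pericentral cells, moved the other way, from 90.9, 153 and 343 to 159.6, 206 and 342 FPKM (0.65 ± 0.19, adjusted p = 0.00501), although no post-transplant library exceeded the pre-transplant maximum. Cdh1, E-cadherin, was called higher among periportal genes (0.44 ± 0.17, adjusted p = 0.0309), and its call ended under 8 of 33 alternative settings, each with 1 or 2 libraries left out (adjusted p up to 0.0664).

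In the growth hormone axis, 21 of 22 listed genes were tested, 4 called higher and 7 lower, with a median change of -0.11, where 23.4% and 26.6% of all genes were called higher and lower. Ghr, the growth hormone receptor, fell from 110.3, 232 and 286 to 34.4, 57.0 and 173 FPKM (-1.43 ± 0.24, adjusted p = 1.73e-05), with 8 of 11 libraries below the pre-transplant range. Akr1d1, a steroid reductase of bile acid synthesis, fell from 571, 733 and 1162 to 82.4, 268 and 668 FPKM (-1.75 ± 0.24, adjusted p = 1.14e-06), and Hsd3b5, a steroid dehydrogenase of male rodent liver, from a median of 83.6 to 22.6 FPKM (-1.49 ± 0.24, adjusted p = 1.14e-05). Cux2, a factor of female-pattern liver genes, rose from 0.0643, 0.226 and 13.1 to 0.569, 7.46 and 11.96 FPKM (1.86 ± 0.37, adjusted p = 0.000139), and pre-transplant replicate 2 held the highest value of all 22 libraries. Quantile normalization evened this list to 6 higher and 6 lower.

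Enzymes that conjugate foreign compounds and hormones fell in 23 of 28 tested members out of 36 listed, with 0 called higher and a median change of -0.85. Ephx2, the soluble epoxide hydrolase, fell from 22.7, 38.6 and 62.0 to 2.42, 13.4 and 18.3 FPKM (-1.62 ± 0.20, adjusted p = 1.78e-07), with the groups apart. Sult1e1, the estrogen sulfotransferase, fell from 176, 933 and 1507 to 10.4, 105.2 and 610.5 FPKM (-3.10 ± 0.48, adjusted p = 4.71e-06), and Gstm2, a glutathione transferase whose reads may be shared with its near copies, from 376 to 88.7 FPKM at the median (-1.64 ± 0.22, adjusted p = 5.56e-07). Of 42 listed solute carriers and ABC transporters of hepatocytes 38 were tested, 5 called higher and 23 lower, with a median change of -0.68. Slc26a1, a sulfate carrier, fell from 47.5, 60.1 and 90.6 to 10.3, 25.9 and 44.3 FPKM with the groups apart (-1.36 ± 0.19, adjusted p = 1.70e-06). Slc37a4, the glucose 6-phosphate carrier of the endoplasmic reticulum, fell from a median of 129 to 33.3 FPKM (-1.44 ± 0.22, adjusted p = 5.31e-06), and Slc23a1, a vitamin C carrier, from 24.8 to 7.07 FPKM (-1.62 ± 0.26, adjusted p = 7.15e-06). Abcc9, a subunit of potassium channels in muscle and perivascular cells, rose from 2.07 to 5.601 FPKM (1.14 ± 0.16, adjusted p = 9.35e-07), and Slc1a4, a carrier of neutral amino acids, from 1.78 to 5.16 FPKM (1.04 ± 0.20, adjusted p = 0.000103).

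**Figure D3:**
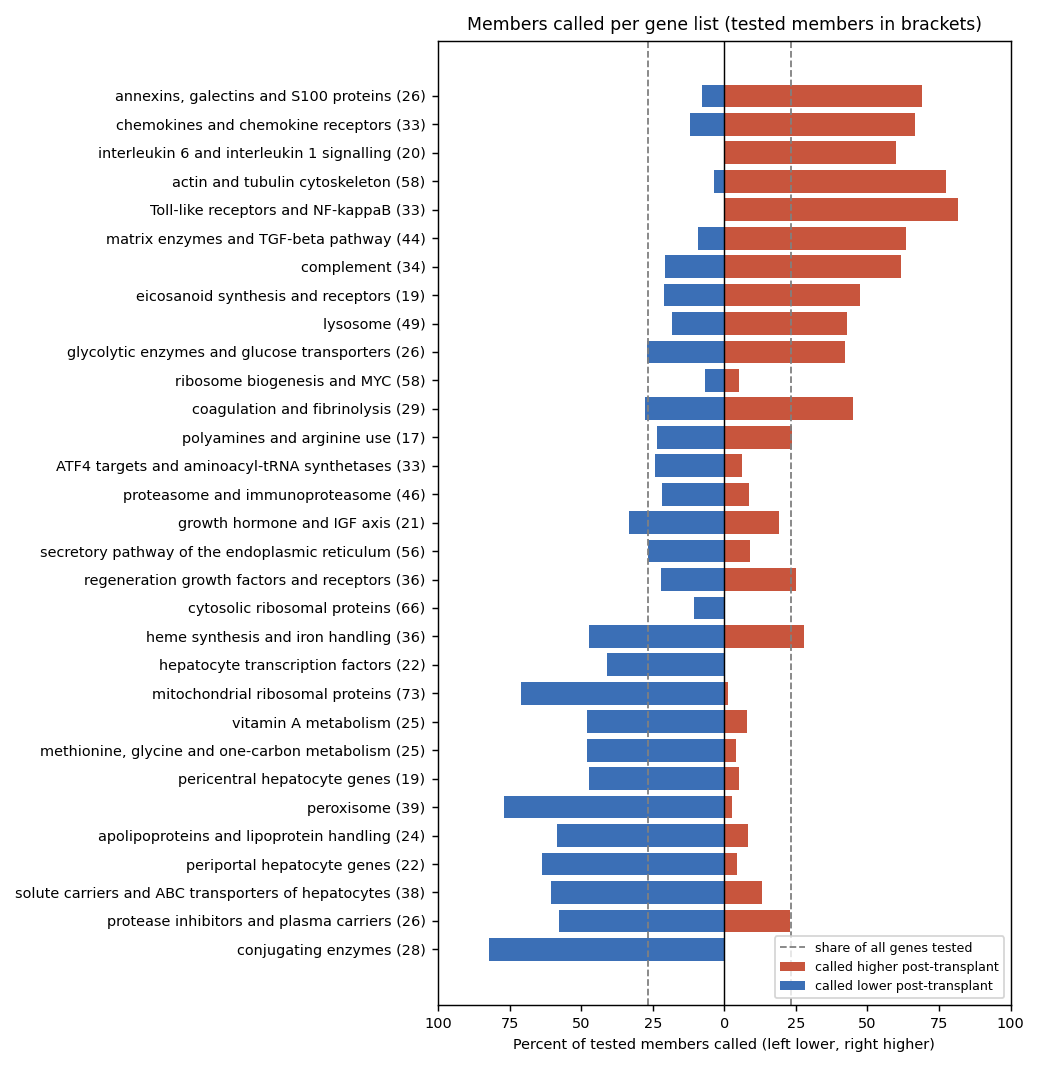
Percent of the tested members of 31 gene lists called lower (blue, left) and higher (red, right) after transplantation, ordered by the list's median change, with dashed lines at the shares over all genes tested (26.6% lower, 23.4% higher). Toll-like receptor, cytoskeleton and annexin lists reach farthest right, and conjugating enzymes, peroxisome and mitochondrial ribosomal proteins farthest left.

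Lipoprotein genes fell in 14 of 24 tested members out of 27 listed, with 2 called higher and a median change of -0.65. Apoc2, the cofactor of lipoprotein lipase, fell from 755, 1281 and 1527 to 188, 370.4 and 770.5 FPKM (-1.65 ± 0.24, adjusted p = 2.05e-06), Lipc, hepatic lipase, from 94.6, 219 and 290.5 to 26.8, 55.9 and 161 FPKM (-1.75 ± 0.24, adjusted p = 1.23e-06), and Apoh from a median of 3715 to 1285 FPKM (-1.19 ± 0.21, adjusted p = 2.38e-05). In Apoc2, 10 of 11 libraries lay below the pre-transplant range. The members that rose act on lipoproteins in plasma and tissue: Pltp, the phospholipid transfer protein, from 17.9 to 50.6 FPKM (1.43 ± 0.25, adjusted p = 2.32e-05) and Lpl, lipoprotein lipase, from 2.39 to 9.68 FPKM (1.67 ± 0.33, adjusted p = 0.000125). For vitamin A, 25 of 33 listed genes were tested, 2 called higher and 12 lower, with a median change of -0.33. Retsat, a retinol saturase, fell from 179, 464 and 635 to 65.9, 87.7 and 228 FPKM (-1.99 ± 0.21, adjusted p = 2.00e-08), and Dhrs3, which reduces retinal to retinol, from 68.0 to 23.3 FPKM at the median (-1.40 ± 0.17, adjusted p = 2.46e-07). Rarg, a retinoic acid receptor, rose from 2.22 to 3.31 FPKM (0.50 ± 0.10, adjusted p = 0.000156), and Rarres1, a retinoic acid responsive gene, from 57.6 to 134 FPKM (1.31 ± 0.19, adjusted p = 1.59e-06).

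Peroxisomal genes fell in 30 of 39 tested members out of 43 listed, with 1 called higher and a median change of -0.58. Cat, catalase, fell from 541, 1507 and 1832 to 158, 316 and 1219.5 FPKM (-1.75 ± 0.29, adjusted p = 1.19e-05), with 7 of 11 libraries below the pre-transplant range. Hao2, a hydroxyacid oxidase, fell from 59.1, 226 and 391 to 15.2, 35.7 and 164 FPKM (-2.54 ± 0.36, adjusted p = 1.40e-06), and Pecr, an enoyl-CoA reductase, from 336 to 123 FPKM at the median (-1.20 ± 0.16, adjusted p = 6.60e-07). Pex10, a ubiquitin ligase that recycles the import receptor, fell from 7.52, 9.29 and 12.8 to 4.51, 5.33 and 6.38 FPKM with the groups apart (-0.74 ± 0.09, adjusted p = 1.37e-07). Agps, an enzyme of ether lipid synthesis, was the exception and rose from 3.40 to 5.76 FPKM (0.48 ± 0.15, adjusted p = 0.00761).

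Several heme synthesis genes fell. The list of heme and iron genes had 36 of its 38 members tested, 10 called higher and 17 lower, with a median change of -0.29. Over all genes tested 23.4% were called higher and 26.6% lower, so the count higher was near that share. Enzymes of the synthesis chain given here were chosen after their values were seen. Fech, ferrochelatase, which inserts the iron, fell from 19.6, 23.6 and 27.9 to 9.79, 14.04 and 17.6 FPKM (-0.75 ± 0.09, adjusted p = 2.09e-07), and Cpox, coproporphyrinogen oxidase, from 33.7, 40.1 and 66.4 to 17.2, 25.7 and 31.8 FPKM (-0.69 ± 0.12, adjusted p = 1.78e-05). Both were apart between groups. Alad changed by -0.89 ± 0.18, Uros by -0.46 ± 0.07, Urod by -0.65 ± 0.12 and Ppox by -0.59 ± 0.16, with the highest adjusted p at 0.00297 for Ppox. Alas1, the rate-limiting first enzyme in liver, had medians of 51.1 to 45.7 FPKM and did not pass the test (-0.27 ± 0.26, adjusted p = 0.410). Among the 10 that rose were Cp, the ferroxidase ceruloplasmin, from 452, 506 and 664 to 923, 1281 and 2405 FPKM (1.35 ± 0.13, adjusted p = 6.74e-09) and Slc11a1, an iron and manganese carrier of phagocytes, from 2.86, 4.16 and 7.17 to 8.93, 21.9 and 49.7 FPKM (1.97 ± 0.21, adjusted p = 1.89e-08), beside Hmox1, heme oxygenase 1. Groups were apart in these 3.

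In methionine, glycine and one-carbon metabolism, 25 of 27 listed genes were tested, 1 called higher and 12 lower, with a median change of -0.39. Ahcy, which removes S-adenosylhomocysteine, fell from 219, 426 and 724 to 105.3, 187 and 360.1 FPKM (-1.12 ± 0.18, adjusted p = 7.81e-06), Gamt, the last enzyme of creatine synthesis, from 269 to 84.3 FPKM at the median (-1.36 ± 0.22, adjusted p = 1.14e-05), and Pemt, which methylates phosphatidylethanolamine, from 372 to 221 FPKM (-0.84 ± 0.19, adjusted p = 0.000489). Mthfd2, a mitochondrial folate enzyme of growing cells, was called higher (0.94 ± 0.36, adjusted p = 0.0290), and its call ended under 8 of 33 alternative settings, quantile normalization and title run as a covariate among them (adjusted p up to 0.0686). For polyamines and arginine use, 17 of 22 genes were tested, 4 called higher and 4 lower, shares near those of all genes. Ckb, brain-type creatine kinase, rose from 6.27, 7.57 and 10.96 to 12.1, 22.6 and 46.4 FPKM with the groups apart (1.497 ± 0.23, adjusted p = 4.48e-06), and Agmat fell by 0.94 ± 0.18 (adjusted p = 6.08e-05).

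Glycolytic enzymes changed in both directions, and isozymes of 1 step could differ. Of 29 listed glycolytic enzymes and glucose transporters 26 were tested, 11 called higher and 7 lower, with a median change of 0.11. Over all genes tested 23.4% were called higher and 26.6% lower, so the count lower was near that share. Pkm, the pyruvate kinase of most tissues other than liver, rose from 2.87, 4.47 and 9.25 to 10.3, 40.2 and 197 FPKM (2.78 ± 0.33, adjusted p = 1.23e-07), and its liver counterpart Pklr, named after its value was seen, fell from 6.82, 50.6 and 107.9 to 3.25, 9.36 and 37.0 FPKM (-1.82 ± 0.38, adjusted p = 0.000262). Aldoa, the aldolase of muscle and many other tissues, rose from 23.2, 28.6 and 54.9 to 45.3, 104.2 and 247 FPKM (1.56 ± 0.21, adjusted p = 9.59e-07). Hk2, a hexokinase of muscle and growing cells, rose from 0.242, 0.447 and 0.730 to 0.946, 1.73 and 7.90 FPKM (1.11 ± 0.17, adjusted p = 4.55e-06), Pfkp, the platelet-type phosphofructokinase, by 1.15 ± 0.18 (adjusted p = 5.28e-06), and Gckr, which regulates glucokinase, fell from a median of 110.4 to 30.2 FPKM (-1.69 ± 0.30, adjusted p = 3.51e-05). Hk2 was under 1 FPKM in every pre-transplant library and passed the filter through libraries of the other groups, so its call says little.

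Per-length levels let the isozymes of a family be set against each other, on the FPKM scale and with no test. Pyruvate kinase M took 3.15% to 50.2% of the family before, with a median of 7.18%, and 26.5% to 97.1% after, with a median of 75.15%. Hexokinases 1 to 3 took a median of 13.7% of the hexokinase family with glucokinase before and 73.1% after. The share of lactate dehydrogenase B was 0.101% before and 0.852% after at the median. In post-transplant libraries these shares exceeded the pre-transplant maximum in 9, 8 and 10 of 11 libraries, in the order given. The leukocyte markers given above moved in the same comparison, and their part was not tested.

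**Figure D4:**
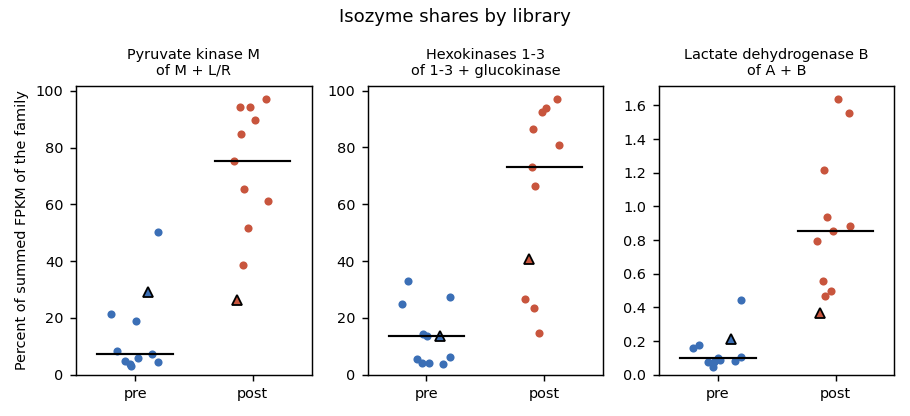
Share of the summed FPKM of an enzyme family taken by its non-hepatic isozymes in each library (percent, linear axes from 0), pre-transplant in blue and post-transplant in red, with a line at the group median and triangles for replicates u2 (before) and 9 (after). Post-transplant medians were 75.15%, 73.1% and 0.852%, and the post-transplant libraries spread widely.

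Ribosomal proteins of mitochondria fell in most of the members tested. Of 81 listed mitochondrial ribosomal proteins 73 were tested, 1 called higher and 52 lower, with a median change of -0.31, and 8 of the 73 had non-overlapping groups, against 0.964% of all genes. Mrpl16, of the large subunit, fell from 33.3, 38.4 and 48.4 to 15.2, 26.6 and 30.1 FPKM (-0.75 ± 0.11, adjusted p = 1.62e-06), and Mrps9, of the small subunit, from 26.1, 28.2 and 36.6 to 12.7, 19.8 and 24.01 FPKM (-0.60 ± 0.09, adjusted p = 2.41e-06). Mrps6 was the exception and rose by 0.47 ± 0.14 (adjusted p = 0.00488). Of 66 tested cytosolic ribosomal proteins out of 78 listed, 0 were called higher and 7 lower with a median of -0.16, whereas quantile normalization gave 20 higher and 1 lower with a median of 0.22, so no direction is given for them. The same setting left 35 mitochondrial ones lower and 2 higher with a median of -0.21. Gene length moved with the change under the deposited scaling: in the 2981 shortest genes tested, with a median length of 870 bases, the median change was -0.11, against 0.02 in the 2980 longest, but with quantile normalization it was -0.097 and -0.062. The median length of the mitochondrial list was 1149 bases.

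Other parts of protein production and breakdown had few members called higher under the deposited scaling. Over all genes tested, 23.4% were called higher and 26.6% lower. In the secretory, proteasome and ATF4 lists the share called lower was near that of all genes. For the secretory pathway of the endoplasmic reticulum, 56 of 62 listed genes were tested, 5 called higher and 15 lower, and for the proteasome 46 of 47, 4 called higher and 10 lower. Quantile normalization reversed both counts, to 17 higher and 8 lower and to 16 higher and 5 lower. Under the deposited scaling, Sec24c, a coat protein of vesicles that leave the endoplasmic reticulum, fell from 32.1, 35.7 and 38.4 to 23.8, 28.1 and 31.6 FPKM with the groups apart (-0.35 ± 0.06, adjusted p = 6.00e-06). Psmb10, a catalytic subunit of the immunoproteasome, rose from 18.4, 21.9 and 40.0 to 33.2, 54.3 and 121 FPKM (1.16 ± 0.16, adjusted p = 1.37e-06), and Psmb9, another, from 23.95 to 54.9 FPKM at the median (1.00 ± 0.24, adjusted p = 0.00115). Psmd5, an assembly factor of the standard proteasome, fell from 18.6 to 13 FPKM (-0.49 ± 0.08, adjusted p = 1.71e-05). Among ATF4 targets and aminoacyl-tRNA synthetases, 33 of 35 listed genes were tested, 2 called higher and 8 lower, or 6 and 5 with replicates u2 and 9 left out. Atf5, a factor of the mitochondrial stress response, fell from 293, 487 and 828 to 69.7, 164 and 279 FPKM with the groups apart (-1.49 ± 0.21, adjusted p = 1.79e-06), and Wars, which interferon induces, rose from 7.30 to 10.7 FPKM (0.81 ± 0.18, adjusted p = 0.000566). For ribosome biogenesis and MYC, 58 of 60 listed genes were tested, 3 called higher and 4 lower, and with replicates u2 and 9 left out it was 17 higher and 3 lower.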

How the data were processed

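Polyadenylated liver RNA was sequenced. The deposited table gives 1 FPKM value per gene and library. Its header names no unit, and FPKM was worked out from the values, which come in whole multiples of 1 read's worth (tolerance 0.02 of a read). How the authors scaled libraries is not given in the sources used here. The library size that the values imply was 0.839 to 1.22 times the reads recovered for genes in pre-transplant libraries. In post-transplant libraries it was 0.783 to 1.41 times those reads, so it was not the plain count of reads. HISAT2 2.0.5 is listed per the submitters' processing notes, which name Rnor_6.0 as well as mm10 without saying what each was used for.

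Columns were tied to groups by the sample titles. 2 titles, both pre-transplant, match no header, and 2 headers stand over 2 columns each. Where the shared header is a post-transplant title (replicate 1), the group of either column is in doubt and both were left out (2 columns not used). Where it is a pre-transplant title, either reading is pre-transplant, and both are kept as replicates u1 and u2. All 22 libraries differed by more than sampling noise. 1 model in limma 3.58.1 (R 4.3.3), with trend and robust empirical Bayes, was fitted to log2(FPKM + 1) of the 3 groups of the series (30 libraries, long-term survivors included) over genes that reached 1 FPKM in 8 or more libraries, with Benjamini-Hochberg adjustment over all 11924 genes. Rows that are no Ensembl gene (1218) were left out, and 2799 genes that share a symbol were tested but not named.

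Genes named were the 10 per direction with the largest moderated t, the 8 with the largest rise and the 8 with the largest fall of mean FPKM, and per list up to 4 called members with the largest t and up to 2 that moved against the list. The text names part of them, and genes added outside this rule are marked. Members and lists were chosen with earlier results of these data known. A planned test of spread recovered none of the changes placed in simulated data, so its calls are not reported. Promoter sequences are RefSeq's, build GRCr8, and the HNF1 and NF-kappaB letters were changed to shorter ones after a first search. Alternatives covered the pseudocount, filter, scaling, quantile normalization, voom on recovered reads, array weights, title run as a covariate and libraries left out. Some results are not reported here.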

Additional observations from a re-analysis of the deposited data

How the results depend on the processing

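Of 216 genes named by rule, 203 kept their call under all 33 alternatives and 13 lost it under at least 1, most often quantile normalization, where Rpl30 also turned from lower to 0.0704. Called genes at least 2-fold higher numbered 1225 with a pseudocount of 0.1 and 1316 with voom on recovered reads. Without a filter, 14257 genes had the larger SD after and 7220 before transplantation. Non-overlapping genes were 296 lower without both columns of the shared header, and 605 higher and 427 lower with replicates u2 and 9 left out, an alternative that was added for the gene lists after seeing the data. With single libraries left out, calls ranged from 2572 to 2909 higher and from 2912 to 3278 lower, 2-fold calls from 689 to 873 and from 413 to 536, non-overlapping genes from 352 to 500 higher and from 116 to 287 lower (287 without u2, 192 without replicate 9), and genes with larger SD from 7872 to 9002 after and from 2882 to 4011 before. As shares of recovered reads rather than FPKM, the medians were 15.8% after for protease inhibitors and carriers, 2.69% before for coagulation, 2.86% and 4.67% for complement, 3.54% before for apolipoproteins, 1.74% and 0.645% for vitamin A and 17.6% and 12.1% for hepatocyte markers, before and after where both are given. Quantile normalization left 2 complement genes lower, and called 2 Toll-like receptor and NF-kappaB genes and title run as a covariate 1 interleukin gene lower, lists with 7, 0 and 0 in the report. The causes were not tested. No paired analysis was possible because no label ties a post-transplant library to a pre-transplant one.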
